A study of Mus musculus with 36 samples.

Results

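The swim response of cortical pyramidal neurons at 4 h was set against the response at 1 h, in ribosome-bound RNA of Shank3 mutant and wild-type (WT) mice. All 36 of the 36 libraries of the series entered the comparison. The response at 4 h was the difference between swim libraries and naive libraries of cohort 2. The response at 1 h was the same difference in cohort 1. The time contrast is the response at 4 h minus the response at 1 h, averaged over the genotypes on the log2 scale. At 4 h there were 6 Shank3 and 5 WT swim libraries, against 4 Shank3 and 4 WT naive libraries of cohort 2. At 1 h there were 5 Shank3 and 6 WT swim libraries, against 3 Shank3 and 3 WT naive libraries of cohort 1. Every 4 h library was in cohort 2 and every 1 h library in cohort 1, so a difference between the times and a difference between the cohorts cannot be told apart.

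Shank3 mice were Shank3(deltaC/+); HA-Rpl22(f/+);Camk2a-Cre(+/-) and WT mice were Shank3(+/+);HA-Rpl22(f/+);Camk2a-Cre(+/-) littermates, all on the C57BL6JL background. Both genotypes therefore carried the HA-tagged ribosomal protein Rpl22 and the Cre driver. Camk2a-Cre switches the tag on mainly in excitatory neurons, and tagged ribosomes were pulled down from cortex with an anti-HA antibody. The extraction protocol writes the tag as HA-Rpl22(f/f) in place of the f/+ of the genotype labels. Swim mice were placed in water at 25 °C, for 5 min in the treatment label and 6 min in the protocol, and naive mice stayed in the home cage. The sources used here give neither age nor sex. No label names the animal behind a library, and p-values therefore reflect variation among libraries, which may be technical.

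As background, neuronal activity and stress hormones switch on genes in waves. Immediate early genes such as Fos, Arc and the Egr and Nr4a genes are induced within minutes by factors that are already present, among them CREB bound to the cAMP response element (CRE), and their mRNAs are short-lived. A later wave includes synaptic and secreted proteins such as Homer1, Nptx2 and Bdnf, and glucocorticoids act through their nuclear receptor on genes such as Per1, Sgk1, Fkbp5 and Ddit4.

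The libraries held between 0.884 and 3.52 M counts, with means of 2.06 M at 4 h, 1.24 M in naive libraries of cohort 2, 1.56 M at 1 h and 1.17 M in naive libraries of cohort 1. By position, 43.0% of counts belonged to coding genes and 32.6% to other genes that have an exon of some gene across from them on the other strand, and 19.2% to genes with nothing across from them. The libraries came from a strand-preserving kit, and the sources used here do not give the strand setting of the counting. For pairs of an antisense row and a coding row, the pair share is the percent of their counts on the coding row. It was 17.04% to 33.1% (median 22.6%) at 4 h, 11.75% to 14.98% in naive libraries of cohort 2, 11.45% to 16.99% at 1 h and 10.7% to 11.9% in naive libraries of cohort 1. Every 4 h library lay above every naive library of its cohort. The difference was 12.5 percentage points in Shank3 mice (exact two-sided permutation p = 0.00952) and 9.95 in WT mice (exact p = 0.0159) at 4 h, and 2.68 in Shank3 (exact p = 0.0357) and 3.53 in WT mice (exact p = 0.0238) at 1 h. Each is the smallest p that the group sizes allow, and adjusted over 40 such tests they were 0.0577, 0.0577, 0.068 and 0.0595. A fit that holds the pair share as a covariate, here called the pair share fit, was therefore run as well, and its values are given beside the calls that it ends and beside many of the others. Part of a swim response that moves with the pair share is removed by that fit, and its part in each result was not tested.

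Markers of the labelled cell type were detected in the pull-down, and their enrichment over whole cortex was not tested. All 18 pyramidal neuron markers were detected at the median library, among them Camk2a, Slc17a7 and Tbr1. Their summed level per library was 2944 to 7102 CPM (counts scaled to a common library total) at 4 h, 992 to 2276 in naive libraries of cohort 2, 1192 to 2518 at 1 h and 934 to 1423 in naive libraries of cohort 1. Markers of other cells moved as well. Astrocyte markers summed to 153 to 305 CPM at 4 h, against 39.7 to 135 in naive libraries of cohort 2, and to 46.5 to 137 CPM at 1 h, against 31.6 to 64.1 in naive libraries of cohort 1. Oligodendrocyte markers summed to 143 to 560 CPM at 4 h, against 35.5 to 127 CPM, and to 68.7 to 129 at 1 h, against 54.4 to 87.2 CPM. Interneuron markers summed to 98.9 to 382 CPM at 4 h, against 39.0 to 120 CPM, and to 70.4 to 225 at 1 h, against 63.2 to 82.0 CPM. Microglia markers ran the other way, at 300 to 473 CPM at 4 h against 387 to 645 and 454 to 639 at 1 h against 622 to 698 CPM. These sums lack the scaling by what lies on the other strand that the fit below used. In that fit the median 4 h response (log2) was 0.15 over 17 pyramidal markers tested, against 0.11 over all genes. It was 0.695 over 7 astrocyte, 0.51 over 4 oligodendrocyte, 0.27 over 6 interneuron and -0.39 over 2 microglia markers. At the median library, 10 of 12 microglia, 10 of 12 endothelial and mural, 7 of 9 choroid plexus and blood, 6 of 13 oligodendrocyte and 1 of 14 astrocyte markers had no count, as did the interneuron markers Npy, Sst and Vip. In bulk libraries fewer cells of a type and less RNA per cell cannot be told apart. The part of these markers in the results was not tested.

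Counts were fitted with edgeR's quasi-likelihood test, and a gene was called at a Benjamini-Hochberg adjusted p under 0.05 over the 11341 genes tested. The time contrast called 1623 genes, which is 14.3% of those tested. Of these, 476 (4.2%) responded higher at 4 h than at 1 h and 1147 (10.1%) lower. The 4 h response alone called 7061 genes (62.3%), with 34.1% of those tested higher and 28.2% lower, and the 1 h response 4204 genes (37.1%), with 20% higher and 17.1% lower. With the pair share as a covariate the counts were 666 (5.87%) in the time contrast, of which 1.73% of tested genes were higher and 4.14% lower, 930 (8.2%) at 4 h, with 4.96% higher and 3.24% lower, and 3203 (28.2%) at 1 h, with 16.9% higher and 11.4% lower. Of the genes called in the time contrast, 111 of the higher and 390 of the lower ones were called the same way in both fits, which is 23.3% and 34% of the calls without the covariate and 56.6% and 83% of those with it. Without the 8 libraries at 4 h whose pair share was over 20%, which leaves 3 libraries at 4 h, 118 genes were called in the time contrast. Median-of-ratios scaling turned the split into 584 higher and 804 lower, so fewer than the 1147 were lower. A scaling over all genes at once, in place of separate scaling by what lies on the other strand, put the median of all genes at 0.24 at 4 h and 0.21 at 1 h, against 0.11 and 0.12 here, and that of the time contrast at -0.13 against -0.10.

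Genes fell into time classes by their calls. Early genes were called at 1 h and not in the same direction at 4 h, with a called time contrast against the 1 h direction, and numbered 243 that rose and 61 that fell. Fading genes were called in the same direction at both times and lower in size at 4 h, with 68 rising and 3 falling. Sustained genes were called in the same direction at both times with no called time contrast, with 1450 rising and 1382 falling. Building genes gained size by 4 h, with 33 rising and 243 falling. Late genes were called at 4 h and not at 1 h, with a called time contrast, and numbered 351 that rose and 522 that fell. A further 20 genes rose at 4 h after falling at 1 h, and 67 fell at 4 h after rising at 1 h. A further 3342 genes were called at neither time. The time contrast was not called for 402 rising and 232 falling genes called at 1 h alone and 1944 rising and 978 falling genes called at 4 h alone.

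**Figure D1:**
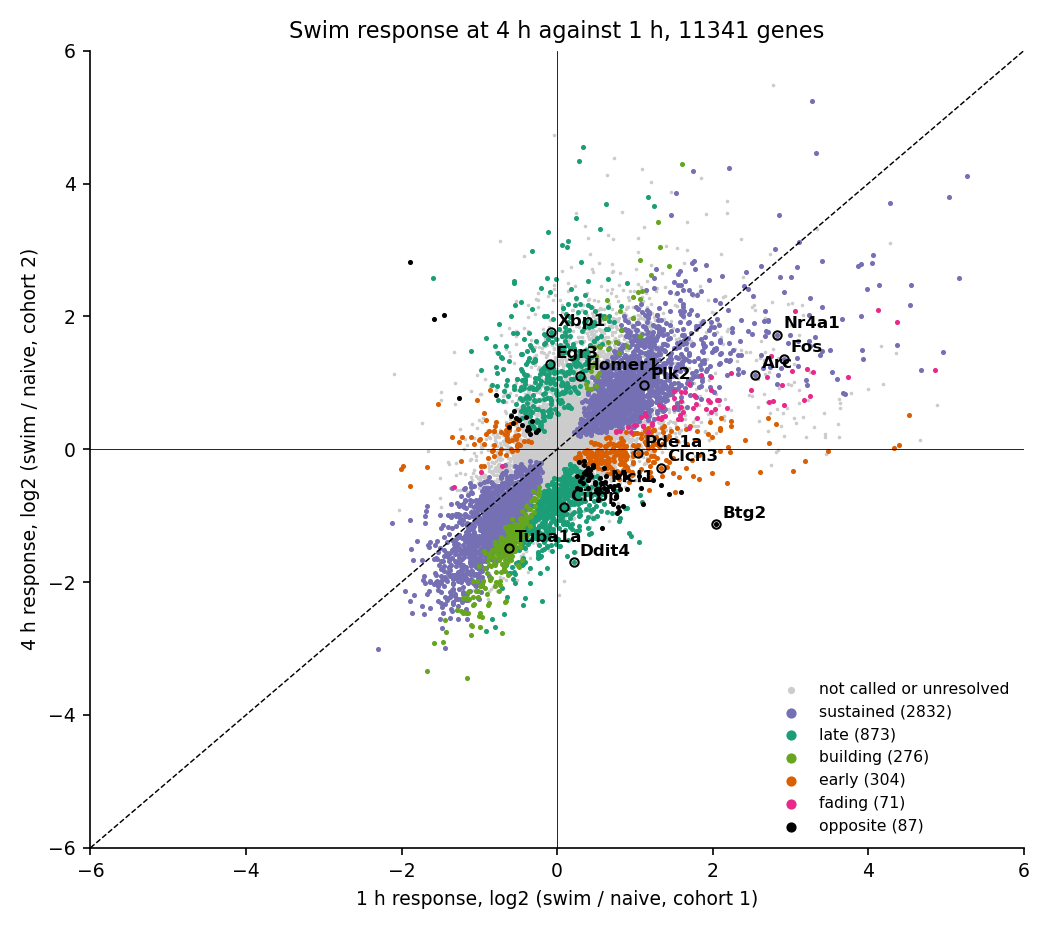
Swim response at 4 h (vertical axis, log2) against the response at 1 h (horizontal axis, log2) for the 11341 genes tested, coloured by time class, with 1 gene outside the axes. Early genes lie along the horizontal axis, late genes along the vertical axis, sustained genes along the diagonal, and the 20 and 67 genes called in opposite directions in the remaining corners.

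Which group carried the contrast differed between the classes. For late genes the swim libraries differed directly: the median 4 h minus 1 h difference between swim libraries was 0.99 (log2) for the 351 late rising genes and fell by 0.75 for the 522 late falling genes, while the naive libraries of cohort 2 minus those of cohort 1 gave medians of -0.22 and 0.11. Of these genes 340 and 504 were also called in that direct comparison, in the same direction. For early rising genes the median direct difference was -0.22, and the naive libraries of cohort 2 were higher than those of cohort 1 by a median of 0.64. Of the 243 early rising genes, 96 were called the same way and 3 the opposite way between the swim libraries. For the 68 fading rising genes the direct median was 0.21 and the naive difference 1.26, with 2 genes called the same way and 21 the opposite way. For the 61 early falling genes the direct median was 0.30 and the naive difference -0.56, with 28 called the same way between swim libraries. For early genes of both directions and fading rising genes the naive cohorts thus differed more, by the median, than the swim libraries. For the 1450 sustained rising genes the medians were 0.55 between swim libraries and 0.56 between naive cohorts. The 1382 sustained falling genes had medians of -0.765 and -0.46. Between swim libraries 611 of the sustained rising genes were called in the direction of their time contrast and 510 against it. Of the sustained falling genes these were 1053 and 110. A sustained response is thus not an unchanged level between swim libraries. Over all genes tested the medians were 0.05 between swim libraries and 0.06 between naive cohorts.

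**Figure D2:**
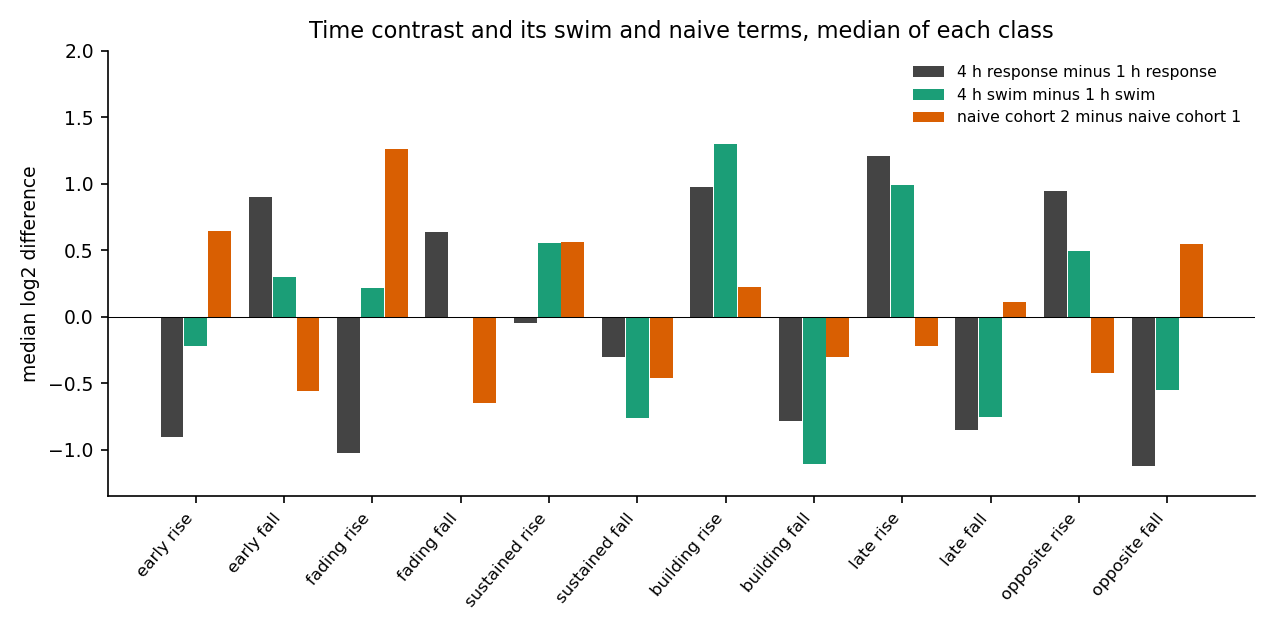
Median log2 difference per time class for the time contrast, for 4 h swim minus 1 h swim libraries, and for naive libraries of cohort 2 minus cohort 1. In late classes the swim difference (0.99 for rising genes) is close in size to the contrast (1.21). In early and fading rising classes the naive difference (0.64 and 1.26) is the larger term, as in the early falling class (-0.56 against 0.30).

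Promoter windows are shown for genes whose responses differ in time and whose windows hold the CRE (TGACGTCA) or its core (TGACG), searched on both strands. The windows are from RefSeq on GRCm38.p6 and run from 250 bases before to 50 after the transcription start. Btg2, an antiproliferative immediate early gene, is at chr1:134079106-134079405 (minus strand) and Clcn3, a chloride and proton exchanger of endosomes, at chr8:60983262-60983561 (minus strand). Fos, a subunit of the AP-1 transcription factor, is at chr12:85473640-85473939 (plus strand). Plk2, an activity-induced kinase that acts at dendritic spines, is at chr13:110394794-110395093 (plus strand). Homer1, which encodes a postsynaptic scaffold and an activity-induced short form, is at chr13:93303507-93303806 (plus strand). Capitals mark the CRE in Btg2, Clcn3 and Plk2 and the CRE core in Fos and Homer1.
Btg2: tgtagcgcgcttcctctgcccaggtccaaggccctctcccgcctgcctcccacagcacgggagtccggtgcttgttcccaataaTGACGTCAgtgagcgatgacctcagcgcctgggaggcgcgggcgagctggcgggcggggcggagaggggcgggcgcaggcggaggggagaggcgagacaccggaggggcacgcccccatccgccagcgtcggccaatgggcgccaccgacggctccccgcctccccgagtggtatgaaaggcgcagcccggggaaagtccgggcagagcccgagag
Clcn3: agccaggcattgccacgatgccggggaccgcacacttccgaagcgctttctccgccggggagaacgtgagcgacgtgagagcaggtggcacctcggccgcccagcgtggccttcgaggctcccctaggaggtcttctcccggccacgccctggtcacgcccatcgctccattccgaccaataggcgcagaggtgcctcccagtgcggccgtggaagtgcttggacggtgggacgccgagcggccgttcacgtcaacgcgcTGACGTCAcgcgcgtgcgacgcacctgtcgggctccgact
Fos: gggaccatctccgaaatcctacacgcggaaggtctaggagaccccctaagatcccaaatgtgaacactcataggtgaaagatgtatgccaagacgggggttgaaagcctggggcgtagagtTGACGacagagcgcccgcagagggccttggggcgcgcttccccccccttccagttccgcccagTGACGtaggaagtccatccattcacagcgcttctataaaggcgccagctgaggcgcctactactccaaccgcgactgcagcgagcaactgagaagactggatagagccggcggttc
Plk2: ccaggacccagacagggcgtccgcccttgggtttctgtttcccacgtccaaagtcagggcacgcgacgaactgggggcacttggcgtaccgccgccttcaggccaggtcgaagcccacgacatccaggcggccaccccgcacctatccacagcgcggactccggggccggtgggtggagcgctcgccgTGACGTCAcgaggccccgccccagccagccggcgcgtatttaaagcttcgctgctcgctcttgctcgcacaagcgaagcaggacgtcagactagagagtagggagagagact
Homer1: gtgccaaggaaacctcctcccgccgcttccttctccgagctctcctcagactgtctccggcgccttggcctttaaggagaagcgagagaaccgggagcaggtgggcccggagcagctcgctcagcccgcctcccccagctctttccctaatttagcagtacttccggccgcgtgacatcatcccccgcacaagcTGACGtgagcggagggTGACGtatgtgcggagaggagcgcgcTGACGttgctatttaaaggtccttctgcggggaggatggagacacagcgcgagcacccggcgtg
The CRE began 166 bases before the start in Btg2, 62 before in Plk2 and 10 after in Clcn3. The core began 129 and 66 bases before the start in Fos and 56, 40 and 14 before in Homer1. Btg2 responded in opposite directions, Clcn3 early, Fos and Plk2 at both times and Homer1 late, and the genes were picked for this difference. Neither motif was in the windows of Ddit4, Nrgn, Tuba1a or Xbp1, nor in the other window of Clcn3 and of Homer1. A window was found for 8033 of the 11341 genes tested. The CRE was in 1.79% of all 32851 windows and in 3.07% of the 10476 windows of tested genes. It was in 13 of 205 windows (6.34%) of early rising and 4 of 52 (7.69%) of early falling genes. Sustained rising genes had it in 56 of 1407 windows (3.98%) and sustained falling genes in 33 of 1205 (2.74%), while late rising genes had it in 6 of 340 (1.76%) and late falling genes in 2.58% of windows. It was in 2 of 42 windows (4.76%) of fading rising, 3 of 230 (1.3%) of building falling, 2 of 25 (8.0%) of opposite rising and 1 of 65 (1.54%) of opposite falling genes. The CRE core, which every CRE holds on both strands, was in 31.6% of tested windows and in 26.8% to 40.5% of the windows of each of these classes. These shares were not tested. Windows of a gene can overlap, and a match is a description of these letters.

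Early rising genes rose at 1 h and were not called higher at 4 h. Pde1a, which encodes a calmodulin-dependent phosphodiesterase of cyclic nucleotides, had the smallest p among them. It had 149 to 241 normalized counts (median 213) in the 11 libraries at 4 h and 172 to 254 (median 205) in the 8 naive libraries of cohort 2. At 1 h it had 226 to 334 (median 277) in 11 libraries, against 83.1 to 202 (median 133) in the 6 naive libraries of cohort 1. All 1 h libraries lay above every naive library of their cohort, while the groups overlapped at 4 h. The log2 response was -0.06 ± 0.11 (SE) at 4 h and 1.04 ± 0.14 at 1 h, a time contrast of -1.10 ± 0.18 (edgeR, adjusted p = 0.000131), and -0.95 in the pair share fit. Between swim libraries Pde1a fell by 0.46 (log2) at 4 h relative to 1 h, and between naive cohorts it was higher in cohort 2 by 0.64.

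Clcn3 showed the same order on fewer counts. It had 21.2 to 33.0 normalized counts (median 23.4) at 4 h and 19.4 to 37.2 (median 29.7) in naive libraries of cohort 2, and 22.2 to 46.8 (median 30.0) at 1 h, against 3.32 to 24.3 (median 11.7) in naive libraries of cohort 1. At 1 h 9 of 11 libraries were above every naive library, and at 4 h the groups overlapped. The naive libraries of cohort 1 held 37 raw counts of Clcn3 in all. The response was -0.28 ± 0.15 at 4 h and 1.34 ± 0.23 at 1 h, and the time contrast was -1.62 ± 0.28 (edgeR, adjusted p = 0.000206), or -1.49 in the pair share fit. The naive cohorts differed by 1.29 (log2), more than the swim libraries, where Clcn3 fell by 0.32 at 4 h relative to 1 h.

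Other early rising genes with the smallest p were Zfp251, a zinc finger gene with a time contrast of -1.10, Srsf9, a splicing factor gene at -1.62, and Dtl, which encodes a substrate receptor of a ubiquitin ligase, at -2.94. Dtl had 4 raw counts in all naive libraries of cohort 1. Its contrast was -5.22 without replicate 1 of naive Shank3 mice, the lowest value among the 36 fits that leave out 1 library, and it lay below -4 without replicate 2 of naive WT mice as well. Between swim libraries Dtl was not called (-0.32, adjusted p = 0.22), while the naive cohorts differed by 2.62. Dnah7c, at -3.37, belongs to a family of near-identical dynein genes, and its counts are uncertain. It had 15 raw counts in all naive libraries of cohort 1, and its contrast was -5.59 without replicate 2 of naive WT mice. The 4 genes were called in the pair share fit as well. Between swim libraries Zfp251 was not called either (-0.20, edgeR, adjusted p = 0.137), while the naive cohorts differed by 0.90. For Srsf9 the values were -0.61 between swim libraries and 1.02 between naive cohorts, and for Dnah7c -1.03 and 2.34. Of the early class, 119 rising and 23 falling genes kept their class in the pair share fit. Without replicate 2 of the naive Shank3 libraries the class held 190 genes in place of 304.

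Early falling genes were lower at 1 h and not called at 4 h. Nrgn, which encodes the calmodulin-binding postsynaptic protein neurogranin, had 606 to 1129 normalized counts (median 737) at 4 h and 564 to 863 (median 711) in naive libraries of cohort 2. In the swim libraries at 1 h it had 370.2 to 719.8 (median 629), against 691 to 1018 (median 942) in naive libraries of cohort 1. At 1 h 9 of 11 libraries lay below every naive library, and at 4 h the groups overlapped. The time contrast was 0.73 ± 0.18 (edgeR, adjusted p = 0.00623), and 0.53 (adjusted p = 0.126) in the pair share fit. Plekhm2, a lysosome positioning gene (1.14), Borcs7, a subunit of the BORC complex that acts in the same process (1.54), Adcy9, an adenylyl cyclase (1.48), Iqsec3, a synaptic Arf exchange factor (0.72), and mt-Nd2, a mitochondrial subunit of complex I (1.06), had time contrasts in the same direction. The call of Iqsec3 was lost in the pair share fit (adjusted p = 0.0586), and that of mt-Nd2 without replicate 1 of the naive Shank3 libraries. Between swim libraries Adcy9 (0.39, edgeR, adjusted p = 0.0859) and Iqsec3 (0.15, adjusted p = 0.253) were not called, while the naive cohorts differed by -1.095 and -0.57. Nrgn, Plekhm2, Borcs7 and mt-Nd2 were called there, at 0.42, 0.53, 0.82 and 0.625. Their naive differences were -0.31, -0.61, -0.72 and -0.44.

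Among rapid immediate early genes, 21 of 29 were tested. At 4 h 11 were called higher and 6 lower, with a median response of 0.49 against 0.11 over all genes, where 34.1% were called higher and 28.2% lower. With the pair share as a covariate 1 was higher and none lower at 4 h (median 0.23), against 4.96% and 3.24% of all genes. At 1 h 9 were higher and 4 lower, with a median of 0.60 against 0.12 over all genes, where 20% were higher and 17.1% lower. With the pair share 8 were higher and 3 lower at 1 h, against 16.9% and 11.4% of all genes. In the time contrast 2 were higher (Egr3 and Junb) and 2 lower (Btg2 and Mcl1), against 4.2% and 10.1% of all genes. The median was -0.35 against -0.10 over all genes. In the pair share fit none was higher and 2 lower, against 1.73% and 4.14% of all genes. Fos, Arc, Nr4a1, Egr1, Fosb and Egr4 were chosen for description after their values were seen.

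Fos was called at both times, and at 1 h alone in the pair share fit. It had 7.65 to 32.1 normalized counts (median 16.8) at 4 h and 2.16 to 17.7 (median 5.43) in naive libraries of cohort 2, and 25.3 to 58.5 (median 40.4) at 1 h, against 0 to 9.97 (median 4.36) in naive libraries of cohort 1. All 11 libraries at 1 h lay above every naive library, as did 5 of 11 at 4 h. The response was 1.36 ± 0.32 at 4 h (edgeR, adjusted p = 0.000374, and 0.0501 in the pair share fit) and 2.92 ± 0.40 at 1 h (adjusted p = 8.36e-07). The time contrast of -1.56 ± 0.59 was not called (adjusted p = 0.0669). Between swim libraries Fos fell by 1.2 at 4 h relative to 1 h (edgeR, adjusted p = 1.76e-06). The naive libraries of cohort 1 held 13 Fos counts in all, against 35 in naive libraries of cohort 2.

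Arc, whose product acts on AMPA receptor trafficking, responded by 1.12 ± 0.43 at 4 h and 2.55 ± 0.55 at 1 h, and its time contrast of -1.42 ± 0.75 was not called (edgeR, adjusted p = 0.202). Its 4 h call was lost in 6 of the 36 fits that leave out 1 library, namely naive WT replicate 6, naive Shank3 replicates 4, 5 and 6, and replicate 1 of the WT and of the Shank3 libraries at 4 h. Nr4a1, an orphan nuclear receptor, responded by 1.73 ± 0.33 at 4 h and 2.83 ± 0.46 at 1 h, again with no called contrast (adjusted p = 0.27). Egr1, a zinc finger factor used as an activity marker, rose at both times. It had 109 to 274 normalized counts (median 159) at 4 h, against 25.9 to 131 (median 81.6) in naive libraries of cohort 2, and 155 to 285 (median 169) at 1 h, against 69.8 to 109 (median 78.5) in naive libraries of cohort 1. All 11 libraries at 1 h and 8 of 11 at 4 h lay above every naive library of their cohort. The responses were 1.10 ± 0.16 and 1.11 ± 0.19, and the contrast of -0.01 ± 0.25 was not called. Fosb, a further AP-1 subunit, responded by 1.47 at 4 h and 1.31 at 1 h, while Egr4 fell at both times, by 1.62 and 1.11. None of the 4 h calls of these 5 genes was kept in the pair share fit, where the values were 0.77 for Arc (adjusted p = 0.565), 1.08 for Nr4a1 (0.166), 0.75 for Egr1 (0.0628), 0.47 for Fosb (0.572) and -0.97 for Egr4 (0.0837). Their 1 h calls were kept in that fit except that of Fosb (adjusted p = 0.169).

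Btg2 and Mcl1 rose at 1 h and fell at 4 h. Btg2 had 1.56 to 6.45 normalized counts (median 3.07) at 4 h and 2.39 to 20.2 (median 7.17) in naive libraries of cohort 2, and 5.54 to 15.4 (median 10.4) at 1 h, against 0 to 13.3 (median 2.21) in naive libraries of cohort 1. The groups overlapped at both times, and the raw counts were 102 at 4 h, 42 in naive libraries of cohort 2, 119 at 1 h and 10 in naive libraries of cohort 1. The response was -1.12 ± 0.35 at 4 h and 2.04 ± 0.58 at 1 h, and the contrast was -3.16 ± 0.66 (edgeR, adjusted p = 0.00155), or -3.00 in the pair share fit. Without replicate 2 of naive WT mice the contrast was -4.92. Between swim libraries Btg2 fell by 1.56 at 4 h relative to 1 h, and the naive cohorts differed by 1.61. Mcl1, which encodes an inhibitor of apoptosis, had 20.4 to 52.3 normalized counts (median 33.1) at 4 h and 37.9 to 82.0 (median 52.7) in naive libraries of cohort 2. Mcl1 had 41.2 to 78.8 (median 62.0) at 1 h, against 30.9 to 52.1 (median 36.4) in naive libraries of cohort 1. At 4 h 7 of 11 libraries lay below, and at 1 h 7 of 11 above, every naive library of their cohort. Its contrast was -1.18 ± 0.26 (edgeR, adjusted p = 0.00243), or -0.78 in the pair share fit. The 4 h responses were not called in that fit, at -0.81 for Btg2 (adjusted p = 0.34) and 0.13 for Mcl1 (0.751).

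Egr3, a zinc finger factor, was a late rising gene. It had 50.4 to 117 normalized counts (median 57.2) at 4 h and 19.1 to 47.5 (median 28.4) in naive libraries of cohort 2, with no overlap. At 1 h it had 25.4 to 66.9 (median 39.0), against 16.5 to 55.3 (median 48.4) in naive libraries of cohort 1, which overlapped. The response was 1.28 ± 0.21 at 4 h and -0.10 ± 0.25 at 1 h, a contrast of 1.38 ± 0.33 (edgeR, adjusted p = 0.00506), and 0.93 (adjusted p = 0.0735) in the pair share fit. Junb, an AP-1 subunit whose exons lie opposite another gene, had a contrast of 1.15 ± 0.38 (adjusted p = 0.036), which was called in 19 of the 36 fits that leave out 1 library and not in the pair share fit (adjusted p = 0.404).

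Of the delayed activity-regulated genes, 32 of 38 were tested. At 4 h 17 were called higher and 7 lower (median 0.73), against 34.1% and 28.2% of all genes. In the pair share fit 6 were higher and 2 lower (median 0.28), against 4.96% and 3.24% of all genes. At 1 h 10 were higher and 7 lower (median 0.31), against 20% and 17.1% of all genes. In the time contrast 2 were higher and none lower, with a median of 0.14 against -0.10 over all genes, where 4.2% were higher and 10.1% lower. The 2 were Homer1 and Crem, a CREB family gene. Homer1 had 88.3 to 135 normalized counts (median 109) at 4 h and 25.9 to 63.1 (median 52.1) in naive libraries of cohort 2, with no overlap. At 1 h it had 42.5 to 82.3 (median 57.0), against 42.8 to 53.7 (median 48.1) in naive libraries of cohort 1, and 7 of 11 libraries lay above every naive library. The response was 1.10 ± 0.13 at 4 h and 0.29 ± 0.17 at 1 h, and the contrast was 0.81 ± 0.21 (edgeR, adjusted p = 0.00956), or 0.72 (adjusted p = 0.0364) in the pair share fit. The Homer1 contrast was not called with replicate number as a block, nor without the 8 libraries whose pair share was over 20%. Gene-level counts do not separate the short and long forms of Homer1. The contrast of Crem, whose exons lie opposite another gene, was 1.18 (adjusted p = 0.0355), was called in 19 of the 36 fits that leave out 1 library and was not called in the pair share fit (adjusted p = 0.178).

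Plk2 was sustained. It had 146 to 186 normalized counts (median 157) at 4 h and 49.6 to 107 (median 84.6) in naive libraries of cohort 2, and 107 to 157 (median 129) at 1 h, against 36.2 to 77.0 (median 65.9) in naive libraries of cohort 1. Neither pair of groups overlapped. The response was 0.96 ± 0.11 at 4 h (edgeR, adjusted p = 1.44e-09) and 1.11 ± 0.13 at 1 h (adjusted p = 6.13e-08), and the contrast was -0.15 ± 0.17. The responses were 0.68 and 1.00 in the pair share fit, both called. The other members described here, Bdnf, Nptx2 and Nr4a2, were chosen after their values were seen. Bdnf, a neurotrophin gene with exons opposite another gene, responded by 0.92 ± 0.17 at 4 h and 0.34 ± 0.21 at 1 h, and Nptx2, a secreted synaptic pentraxin gene, by 0.80 ± 0.35 and -0.69 ± 0.47, and neither contrast was called (adjusted p = 0.161 and 0.0826). Nr4a2 responded by 1.06 and 1.42. The 4 h calls of Bdnf, Nptx2 and Nr4a2 were lost in the pair share fit (adjusted p = 0.0596, 0.983 and 0.689), and that of Nptx2 also in 10 of the 36 fits that leave out 1 library. Vgf, the gene of a secreted neuropeptide precursor, fell at both times, by 1.49 and 0.90, and by 0.89 and 0.69 in the pair share fit.

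**Figure D3:**
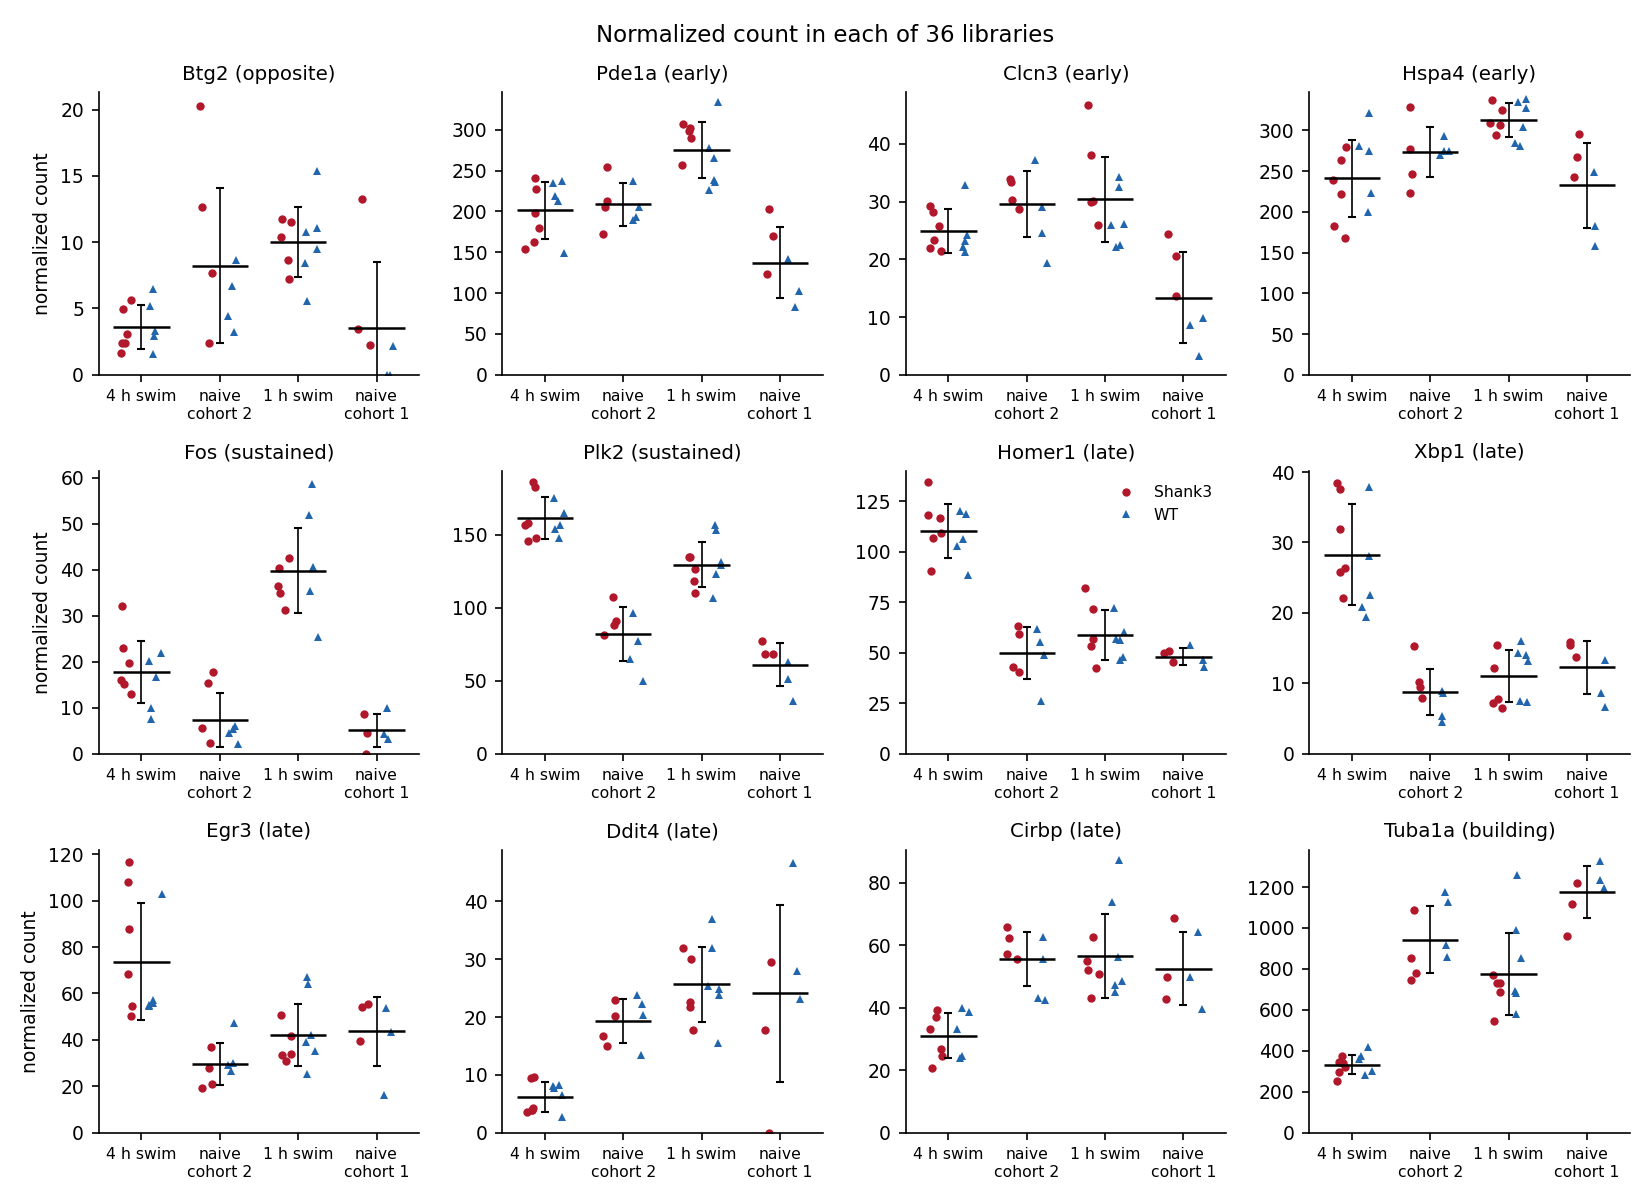
Normalized counts per library (vertical axes, linear from 0) of 12 genes in 4 h swim, naive cohort 2, 1 h swim and naive cohort 1 libraries, with Shank3 libraries as circles, WT libraries as triangles, and the mean ± SD of both genotypes together. Plk2 is above its naive libraries at both times, Fos in every library at 1 h and 5 of 11 at 4 h, and Homer1, Xbp1 and Egr3 in every library at 4 h, while Ddit4, Cirbp and Tuba1a are below them in every library at 4 h.

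Other sustained rising genes with the smallest p were Zyg11b, a ubiquitin ligase receptor gene (0.89 at 4 h and 1.23 at 1 h), Atp6v1a, a subunit of the vacuolar proton pump (0.78 and 0.92), Cltc, the clathrin heavy chain (1.07 and 1.08), Gars, a tRNA synthetase (0.86 and 1.04), and Eef1a1, a translation elongation factor with many processed copies (0.96 and 1.13). In the pair share fit the 4 h calls of Zyg11b (0.79), Cltc (0.77) and Gars (0.54) were kept, and those of Atp6v1a (0.32, adjusted p = 0.0995) and Eef1a1 (0.22, adjusted p = 0.396) were lost. Sustained falling genes were Fxyd1, a regulator of the sodium pump (-2.20 and -1.84), St6gal2, a sialyltransferase (-1.77 and -1.39), Scrt1, a neuronal zinc finger repressor (-1.76 and -1.37), Kcns2, a potassium channel subunit (-1.79 and -1.39), Irf2bpl (-1.40 and -1.32) and Zmat3 (-1.30 and -1.18). Of these, St6gal2 (-1.14) and Kcns2 (-0.67) kept their 4 h call in the pair share fit, while Fxyd1 (-0.82, adjusted p = 0.0783), Scrt1 (-0.90, 0.0748), Irf2bpl (-0.37, 0.183) and Zmat3 (-0.35, 0.213) did not. All 11 were called at 1 h in that fit. Of the sustained class, 269 of 1450 rising and 126 of 1382 falling genes kept it in the pair share fit. The slope on the pair share was called positive for 827 and negative for 6 of the rising genes, and negative for 1045 and positive for 1 of the falling genes. Over all genes tested a slope in either direction was called for 48.6%.

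Late rising genes were higher at 4 h and not called at 1 h. Xbp1, the transcription factor of the unfolded protein response, had 19.4 to 38.5 normalized counts (median 26.3) at 4 h and 4.46 to 15.3 (median 8.79) in naive libraries of cohort 2, with no overlap. At 1 h it had 6.52 to 16.0 (median 12.2), against 6.58 to 15.8 (median 13.5) in naive libraries of cohort 1. The response was 1.77 ± 0.22 at 4 h and -0.07 ± 0.30 at 1 h, and the contrast was 1.84 ± 0.39 (edgeR, adjusted p = 0.00185), or 1.46 (adjusted p = 0.0152) in the pair share fit. Between swim libraries it was higher by 1.34 at 4 h. Hr, a nuclear receptor corepressor, had a contrast of 2.07 ± 0.43, and Baiap2, a scaffold that links small GTPases to actin at synapses, 1.75 ± 0.40. Pfn1, the actin-binding profilin (1.10), Cdk5r2, an activator of Cdk5 (1.33), and Ppp1r37, a phosphatase inhibitor (1.22), followed. The contrasts of Pfn1 and Cdk5r2 were not called in the pair share fit (adjusted p = 0.058 and 0.0633). For Hr the naive cohorts differed by -1.18, more than the swim libraries, at 0.90. For Pfn1 the values were -0.55 and 0.55. For Baiap2, Cdk5r2 and Ppp1r37 the swim libraries differed more than the naive cohorts. Baiap2 had 43.7 to 163 normalized counts at 4 h, against 17.2 to 33.9 in naive libraries of cohort 2, with no overlap.

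Late falling genes were the largest class with a called contrast. Ddit4, an inhibitor of mTORC1 that glucocorticoids and hypoxia induce, had 2.78 to 9.65 normalized counts (median 6.45) at 4 h and 13.4 to 23.7 (median 20.3) in naive libraries of cohort 2, with no overlap. The swim libraries at 1 h held 15.4 to 36.9 (median 24.8), against 0 to 46.5 (median 25.5) in naive libraries of cohort 1, which overlapped. The response was -1.70 ± 0.29 at 4 h and 0.21 ± 0.32 at 1 h, and the contrast was -1.91 ± 0.43 (edgeR, adjusted p = 0.00287), or -1.30 (adjusted p = 0.0312) in the pair share fit. Other members with the smallest p were Dynlt3, a dynein light chain gene (-1.39), Meaf6, a subunit of histone acetyltransferase complexes (-0.98), Rassf3, a Ras association domain gene (-1.45), Hnrnpdl, an RNA-binding protein gene (-1.16), Ptges3, the Hsp90 cochaperone p23 (-1.50), and Zmat2, a zinc finger gene (-1.33). All 6 were called in the pair share fit as well. Ptges3 had 48.1 to 122 normalized counts (median 78.3) at 4 h, against 149 to 265 (median 188) in naive libraries of cohort 2, with no overlap, and 128 to 271 (median 188) at 1 h, against 103 to 196 (median 156) in naive libraries of cohort 1.

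Late classes moved with the pair share. The slope on it was called positive for 279 and negative for 1 of the 351 late rising genes, and negative for 399 and positive for none of the 522 late falling genes. In the pair share fit 25 and 41 of them kept their class. Among early rising genes the slope was called negative for 53 and positive for 7 of 243. Over all genes tested 48.6% had a called slope in either direction.

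**Figure D4:**
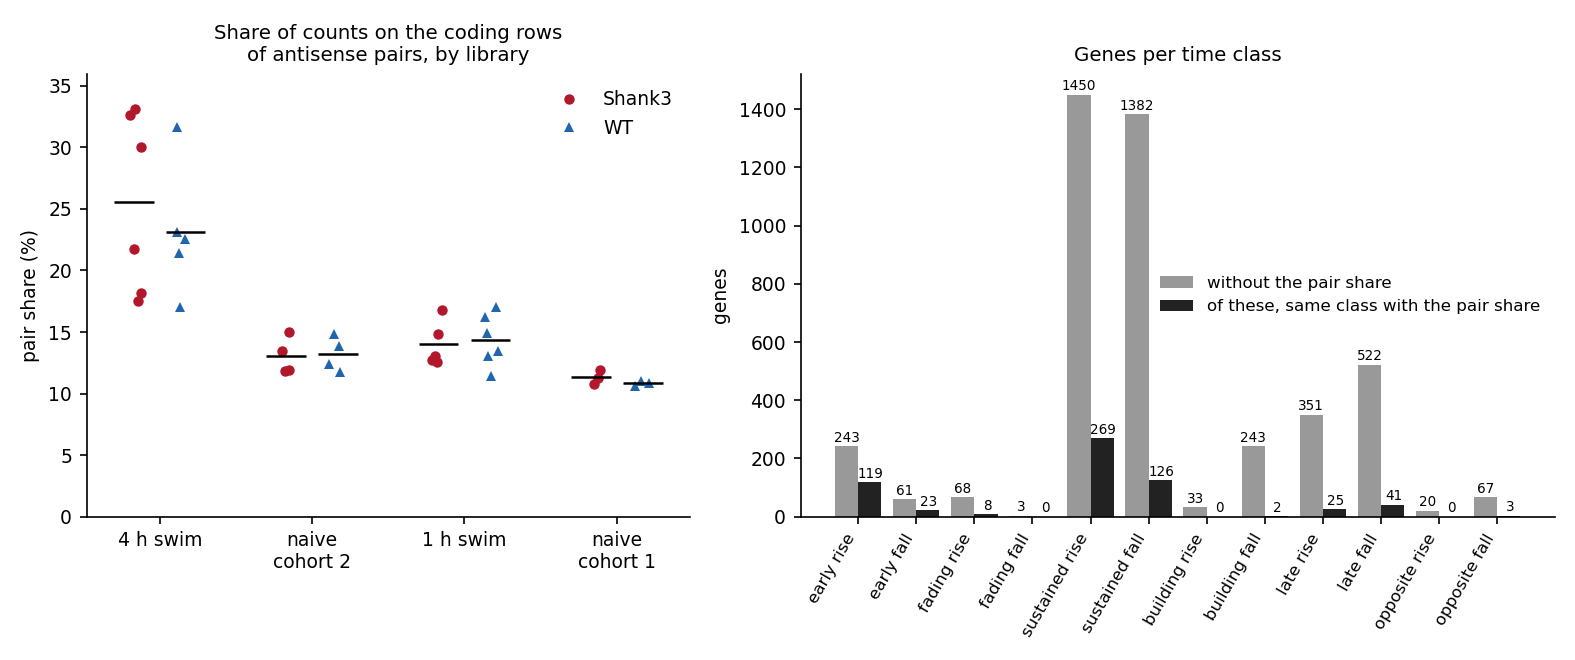
Left, pair share (percent of counts of antisense and coding pairs on the coding row) in each library by group. Right, number of genes in each time class without the covariate, and how many of these kept their class with the pair share as a covariate. The 4 h libraries span 17.04% to 33.1%, above every naive library of cohort 2. Of 351 late rising and 522 late falling genes 25 and 41 kept their class. Of 1450 sustained rising and 1382 sustained falling genes 269 and 126 did.

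Building genes were mostly falling ones. Tuba1a, an alpha-tubulin gene with close paralogs, had 252 to 420 normalized counts (median 341) at 4 h and 746 to 1176 (median 888) in naive libraries of cohort 2, with no overlap. At 1 h it had 545 to 1259 (median 731), against 961 to 1327 (median 1208) in naive libraries of cohort 1, and 9 of 11 libraries lay below every naive library. The response was -1.49 ± 0.12 at 4 h and -0.62 ± 0.13 at 1 h, and the contrast was -0.87 ± 0.17 (edgeR, adjusted p = 0.00107), or -0.58 (adjusted p = 0.0269) in the pair share fit. Itga2b, an integrin subunit gene (-2.76 at 4 h and -0.71 at 1 h), Tlr9, an innate immune receptor gene (-3.44 and -1.15), Col9a2, a collagen gene (-2.28 and -0.65), Srsf5, a splicing factor (-1.75 and -0.50), and Nono, a paraspeckle protein gene (-1.16 and -0.35), fell at both times and further at 4 h, and the contrasts of Col9a2 and Nono were not called in the pair share fit (adjusted p = 0.0601 and 0.108). Building rising genes included Eef2, a translation elongation factor (1.51 and 0.66), Tagln3 (0.98 and 0.37) and Sipa1l1, a postsynaptic GTPase activator (0.92 and 0.39), none of which had a called contrast in the pair share fit. The contrasts of Eef2 and Tagln3 were called in 32 of the 36 fits that leave out 1 library and that of Sipa1l1 in 24, where it was 0.53 over all libraries and 0.33 without replicate 1 of naive WT mice.

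Genes called in opposite directions included both receptor-activated Smad genes of activin and TGF-beta signalling. Smad3 had 47.1 to 79.0 normalized counts (median 61.3) at 4 h, against 34.3 to 73.4 (median 44.9) in naive libraries of cohort 2, and 30.1 to 57.0 (median 42.9) at 1 h, against 41.2 to 70.9 (median 64.9) in naive libraries of cohort 1. Smad2 had 22.4 to 42.6 (median 34.1) at 4 h, against 39.5 to 53.6 (median 49.4), and 38.0 to 54.7 (median 46.3) at 1 h, against 28.8 to 36.0 (median 33.1). Smad3 was higher at 4 h and lower at 1 h than its naive libraries, with overlap at both times, and Smad2 ran the other way, with all 11 libraries at 1 h above and 10 of 11 at 4 h below. The contrasts were 0.94 ± 0.21 for Smad3 (edgeR, adjusted p = 0.00259) and -1.11 ± 0.21 for Smad2 (adjusted p = 0.000524), and both were called in the pair share fit, where the 4 h responses of 0.37 and -0.09 were not called (adjusted p = 0.249 and 0.906). In that fit none of the 20 and 3 of the 67 genes of opposite directions kept their class. The naive cohorts differed by -0.40 for Smad3 and 0.56 for Smad2, about as much as the swim libraries, at 0.54 and -0.55.

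Map6, a microtubule stabilizer, had 56.6 to 85.3 normalized counts (median 68.2) at 4 h, against 40.6 to 61.2 (median 48.6) in naive libraries of cohort 2, and 31.2 to 68.9 (median 39.9) at 1 h, against 38.5 to 70.9 (median 52.3) in naive libraries of cohort 1. At 4 h 9 of 11 libraries lay above every naive library, and at 1 h 3 of 11 lay below. Its contrast was 0.89 ± 0.19 (edgeR, adjusted p = 0.00214) and 0.88 in the pair share fit. Agap2, an Arf GTPase activator (0.66), and Ckb, brain creatine kinase (0.54), went the same way, and neither was called in the pair share fit. Amt, of the glycine cleavage system (-2.11), Nap1l1, a histone chaperone (-1.24), Rnf14, a ubiquitin ligase (-0.77), and Eid2 (-1.55) rose at 1 h and fell at 4 h, and the contrasts of all 4 were called in the pair share fit, while none of their 4 h responses was (-0.23 to 0.14). The naive cohorts differed more than the swim libraries for Amt (1.22 against -0.89) and Eid2 (1.11 against -0.44). They differed less for Nap1l1 (0.54 against -0.70) and Rnf14 (0.29 against -0.48).

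Fading genes rose at both times and less at 4 h. Cox6c, a subunit of cytochrome c oxidase with exons opposite another gene, had 83.9 to 117 normalized counts (median 99.1) at 4 h, against 48.4 to 89.4 (median 66.04) in naive libraries of cohort 2, and 44.7 to 143 (median 103) at 1 h, against 11.7 to 41.9 (median 27.2) in naive libraries of cohort 1. All 11 libraries at 1 h and 9 of 11 at 4 h lay above every naive library of their cohort. Between swim libraries the difference was -0.03 ± 0.13, while the naive cohorts differed by 1.39. The response was 0.61 at 4 h and 2.03 at 1 h, and the contrast was -1.42 ± 0.25 (edgeR, adjusted p = 0.000286), or -1.51 in the pair share fit, where the 4 h response of 0.47 was not called (adjusted p = 0.145). Bnip3l, a mitophagy receptor gene, responded by 0.96 and 2.89, and Stx7, an endosomal syntaxin gene, by 0.35 and 1.11. Bnip3l was higher in the swim libraries at 4 h than at 1 h by 0.64 (adjusted p = 0.00143), against the sign of its contrast, and the naive cohorts differed by 2.57. Bnip3l had 17 raw counts in all naive libraries of cohort 1, and its contrast of -1.93 was -3.68 without replicate 2 of naive WT mice. The contrast of Stx7 was not called in the pair share fit (adjusted p = 0.0586). Both calls rested on single naive libraries: they were lost without replicate 1 or replicate 3 of naive WT and replicate 2 or 5 of naive Shank3 mice for Bnip3l, and without replicate 1 or 2 of naive WT and replicate 1 or 5 of naive Shank3 mice for Stx7.

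Of 24 heat shock chaperones tested, among them the mitochondrial Hspd1, 9 were called lower and 1 higher in the time contrast. Their median was -0.40 against -0.10 over all genes, where 10.1% were called lower and 4.2% higher. In the pair share fit 4 were lower and none higher (median -0.20), against 4.14% and 1.73% of all genes. At 4 h 7 were called higher and 9 lower, against 34.1% and 28.2% of all genes. In the pair share fit 1 was higher and none lower at 4 h, against 4.96% and 3.24% of all genes. At 1 h 9 were higher and 5 lower, against 20% and 17.1% of all genes. Hspa4, of the Hsp110 family, had 168 to 321 normalized counts (median 239) at 4 h, against 223 to 328 (median 274) in naive libraries of cohort 2, and 281 to 338 (median 309) at 1 h, against 158 to 295 (median 246) in naive libraries of cohort 1. At 1 h 8 of 11 libraries lay above every naive library, and at 4 h the groups overlapped. Its response was -0.18 ± 0.10 at 4 h and 0.44 ± 0.12 at 1 h, and the contrast was -0.62 ± 0.16 (edgeR, adjusted p = 0.00782), or -0.45 (adjusted p = 0.0428) in the pair share fit.

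Dnaja1, an Hsp40 cochaperone (-0.71), Hspd1, the mitochondrial Hsp60 (-0.72), and Hsp90aa1, the inducible Hsp90 (-0.76), were early rising genes like Hspa4. Dnaja1 and Hspd1 have exons opposite other genes. Hsp90aa1 was not called without replicate 2 of naive Shank3 mice or in the pair share fit (adjusted p = 0.229). St13, the Hsp70-interacting protein Hip (-0.85), Hsph1, a further Hsp110 member (-0.79), and the Hsp90-associated Cacybp (-1.08) were late falling, and Hsp90ab1, the constitutive Hsp90, was building falling at -1.64 at 4 h and -0.61 at 1 h. St13 was called in the pair share fit and Hsph1, Cacybp and Hsp90ab1 were not. Hsp90aa1, Hsph1, Cacybp, Hsp90ab1 and Dnajb1 were chosen after their values were seen, and the Hsp90 genes have processed copies that can share reads. Dnajb1, the cochaperone of inducible Hsp70, rose at both times, by 0.64 at 4 h and 0.81 at 1 h, and its 4 h call was lost in the pair share fit (0.56, adjusted p = 0.0657).

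Of 7 cold-inducible RNA-binding protein genes tested, 5 were called lower at 4 h and none higher (median -0.87), against 28.2% and 34.1% of all genes. At 1 h 2 were higher and 1 lower (median 0.09), against 20% and 17.1% of all genes. In the time contrast 4 were lower and none higher, with a median of -0.74, against 10.1% and 4.2% of all genes. Cirbp had 20.7 to 40.0 normalized counts (median 33.1) at 4 h, against 42.4 to 65.8 (median 56.4) in naive libraries of cohort 2, with no overlap, and 43.2 to 87.2 (median 52.0) at 1 h, against 39.5 to 68.6 (median 49.8) in naive libraries of cohort 1. Its contrast was -0.96 ± 0.23 (edgeR, adjusted p = 0.00577). Rbm3, which has exons opposite another gene, had 61.7 to 181 normalized counts (median 116) at 4 h, against 125 to 327 (median 248) in naive libraries of cohort 2, and 194 to 349 (median 268) at 1 h, against 209 to 285 (median 245) in naive libraries of cohort 1. The contrast of Rbm3 was -1.10 ± 0.24 (adjusted p = 0.00266) and that of Srsf5 -1.24. In the pair share fit 2 members were higher and none lower at 1 h, against 16.9% and 11.4% of all genes. At 4 h and in the time contrast only Srsf5 of the list was called in that fit. Over all genes 3.24% were called lower at 4 h and 4.14% in the time contrast in that fit. Srsf5 was lower both at 4 h (-0.83, adjusted p = 0.0163) and in the time contrast (-0.73, adjusted p = 0.0429). Cirbp stood at an adjusted p of 0.0542 and Rbm3 at 0.0624.

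Of 21 endoplasmic reticulum stress genes tested, 10 were higher and 5 lower at 4 h, against 34.1% and 28.2% of all genes. In the pair share fit 3 were higher and none lower at 4 h, against 4.96% and 3.24% of all genes. At 1 h 7 were higher and 4 lower, against 20% and 17.1% of all genes. In the time contrast 1 was higher (Xbp1) and 1 lower, against 4.2% and 10.1% of all genes, with a median of -0.18. With the pair share as a covariate 2 were higher (Xbp1 and Atf5) and none lower (median 0.09), against 1.73% and 4.14% of all genes. The lower one was Syvn1, a ubiquitin ligase of the same quality control pathway with exons opposite another gene (-0.67), which was not called without replicate 1 or 4 of naive WT mice. Atf4, a stress-induced transcription factor, rose by 0.69 at 4 h (0.49 in the pair share fit, adjusted p = 0.142) and 0.60 at 1 h, and Calr, a chaperone of the endoplasmic reticulum, fell by 0.53 and 0.61, with a 4 h value of 0.06 in the pair share fit. Both were chosen after their values were seen.

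Of 16 glucocorticoid-responsive genes tested, 4 were higher and 4 lower at 4 h, against 34.1% and 28.2% of all genes. In the pair share fit none was called in either direction at 4 h, against 4.96% of all genes higher and 3.24% lower. At 1 h 2 were higher and 3 lower, against 20% and 17.1% of all genes. In the time contrast 2 were higher, the cell cycle inhibitor Cdkn1a (1.41) and the small GTPase gene Rhob (0.81), and 2 lower, Ddit4 and the small GTPase gene Arl4d (-1.19), with a median of 0.05. Of these Ddit4 alone was called in the pair share fit. Cdkn1a was not called without replicate 2 or 6 of naive WT or replicate 1 or 3 of naive Shank3 mice, and Arl4d was called in 16 of the 36 fits that leave out 1 library, with a value of -1.89 without replicate 2 of naive WT mice. Per1, a clock gene that glucocorticoids induce, responded by 1.79 ± 0.36 at 4 h and 0.55 ± 0.47 at 1 h, and its contrast of 1.24 was not called (edgeR, adjusted p = 0.191). Sgk1, a kinase gene, responded by 1.04 ± 0.28 at 4 h and 0.83 ± 0.41 at 1 h, with an adjusted p of 0.00174 and 0.109. Neither 4 h response was called in the pair share fit, at 0.35 for Per1 (adjusted p = 0.662) and 0.05 for Sgk1 (0.955), nor without the 8 libraries with a pair share over 20%. Fkbp5, a chaperone of the glucocorticoid receptor, had a contrast of 0.80 ± 0.28 (adjusted p = 0.0503). Sgk1 and Fkbp5 were chosen after their values were seen.

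Of 22 clock genes tested, 16 were called higher and 1 lower at 4 h, against 34.1% and 28.2% of all genes, with a median of 0.94 against 0.11 over all genes. With the pair share 3 were higher and 1 lower at 4 h, against 4.96% and 3.24% of all genes, with a median of 0.27. At 1 h 9 were higher and 1 lower (median 0.67), against 20% and 17.1% of all genes. In the time contrast 1 was lower, Nr1d1, a repressor of the clock loop with exons opposite another gene (-0.70), which was lost without replicate 1 or 3 of naive WT or replicate 3 of naive Shank3 mice and in the pair share fit (adjusted p = 0.824). The list median in the time contrast was 0.25, and -0.10 in the pair share fit. Bhlhe40, a repressor with exons opposite another gene, rose by 2.00 at 4 h and 1.62 at 1 h, and Per2 responded by 1.07 ± 0.28 and 0.39 ± 0.36. Both 4 h calls were kept in the pair share fit, at 0.92 and 1.12. Bhlhe40 and Per2 were chosen after their values were seen.

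Synaptic genes moved in both directions. Of 38 postsynaptic density and glutamate receptor genes, 8 were higher and 5 lower in the time contrast (median 0.02), against 4.2% and 10.1% of all genes. In the pair share fit 4 were higher and 2 lower, against 1.73% and 4.14% of all genes. Scaffold genes were among the higher ones. Shank2 had a contrast of 1.23 ± 0.21 (edgeR, adjusted p = 0.000206), Dlgap4, with exons opposite another gene, 1.91 ± 0.38, Baiap2 1.75 and Homer1 0.81. Dlg3, which encodes the scaffold SAP102 (-0.68 ± 0.14), and Camk2b, a subunit of calmodulin-dependent kinase II (-0.58 ± 0.13), were lower. All 6 were called in the pair share fit. Shank3 itself, with exons opposite another gene, responded by 1.10 ± 0.24 at 4 h and 0.10 ± 0.30 at 1 h, with no called contrast (1.01, adjusted p = 0.0819). In the pair share fit its 4 h value was -0.20, and a gene count does not test the deleted part. Camk2a, whose promoter drives the Cre and which was chosen after its values were seen, had a contrast of 0.13 ± 0.14.

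Of 26 presynaptic genes, 3 were higher and 1 lower in the time contrast (median 0.20), against 4.2% and 10.1% of all genes. None was called in the pair share fit, against 1.73% of all genes higher and 4.14% lower. Syn1, the synapsin I gene with exons opposite another gene, had a contrast of 1.28, which was lost without replicate 2 of naive WT mice. Of 20 sterol synthesis genes tested, none was called higher and 2 lower, which is near the 10.1% of all genes called lower, with a median of -0.42. With the pair share 3 were lower, against 4.14% of all genes, and the median was -0.57. The list median ran from -0.64 without replicate 1 to -0.23 without replicate 5 of naive Shank3 mice. The 2 were Nsdhl (-1.43), which was lost without replicate 2 of naive WT mice, and Fdft1, squalene synthase (-0.78), whose level in the swim libraries was higher at 4 h than at 1 h by 0.41, and whose contrast was called in 30 of the 36 fits that leave out 1 library.

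Of 73 ribosomal protein genes, 5 were higher and 7 lower in the time contrast, and of 70 nuclear genes of oxidative phosphorylation 5 and 5, against 4.2% and 10.1% of all genes. At 4 h 45 ribosomal protein and 55 oxidative phosphorylation genes were called higher, and 9 and 3 lower, against 34.1% and 28.2% of all genes. The 4 h medians were 0.76 and 0.83. In the pair share fit 1 gene of each list was higher and none lower at 4 h, against 4.96% and 3.24% of all genes. At 1 h 23 and 26 were higher and 6 and 1 lower, against 20% and 17.1% of all genes. In the time contrast the ribosomal protein genes had a median of 0.26, and -0.07 in the pair share fit. There 2 were higher and 3 lower, against 1.73% and 4.14% of all genes. Rpl11 had 78.5 to 266 normalized counts (median 163) at 4 h, against 388 to 520 (median 443) in naive libraries of cohort 2, and 290.0 to 488 (median 395) at 1 h, against 374 to 554 (median 394) in naive libraries of cohort 1. Its contrast was -1.34 ± 0.26 (edgeR, adjusted p = 0.000955), while that of Rpl28, with exons opposite another gene, was 2.17 ± 0.43. These contrasts were -0.72 and 1.24 in the pair share fit, both called. Processed copies of these genes can share their reads. The oxidative phosphorylation genes had a median of 0.22 in the time contrast, and -0.20 in the pair share fit. There none was higher and 5 lower, against 1.73% and 4.14% of all genes. Among the called ones were Ndufa5 (-1.15) and Ndufs5 (-0.83) of complex I and Atp5j of the ATP synthase (0.81), and the call of Atp5j was lost in the pair share fit (adjusted p = 0.0809).

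**Figure D5:**
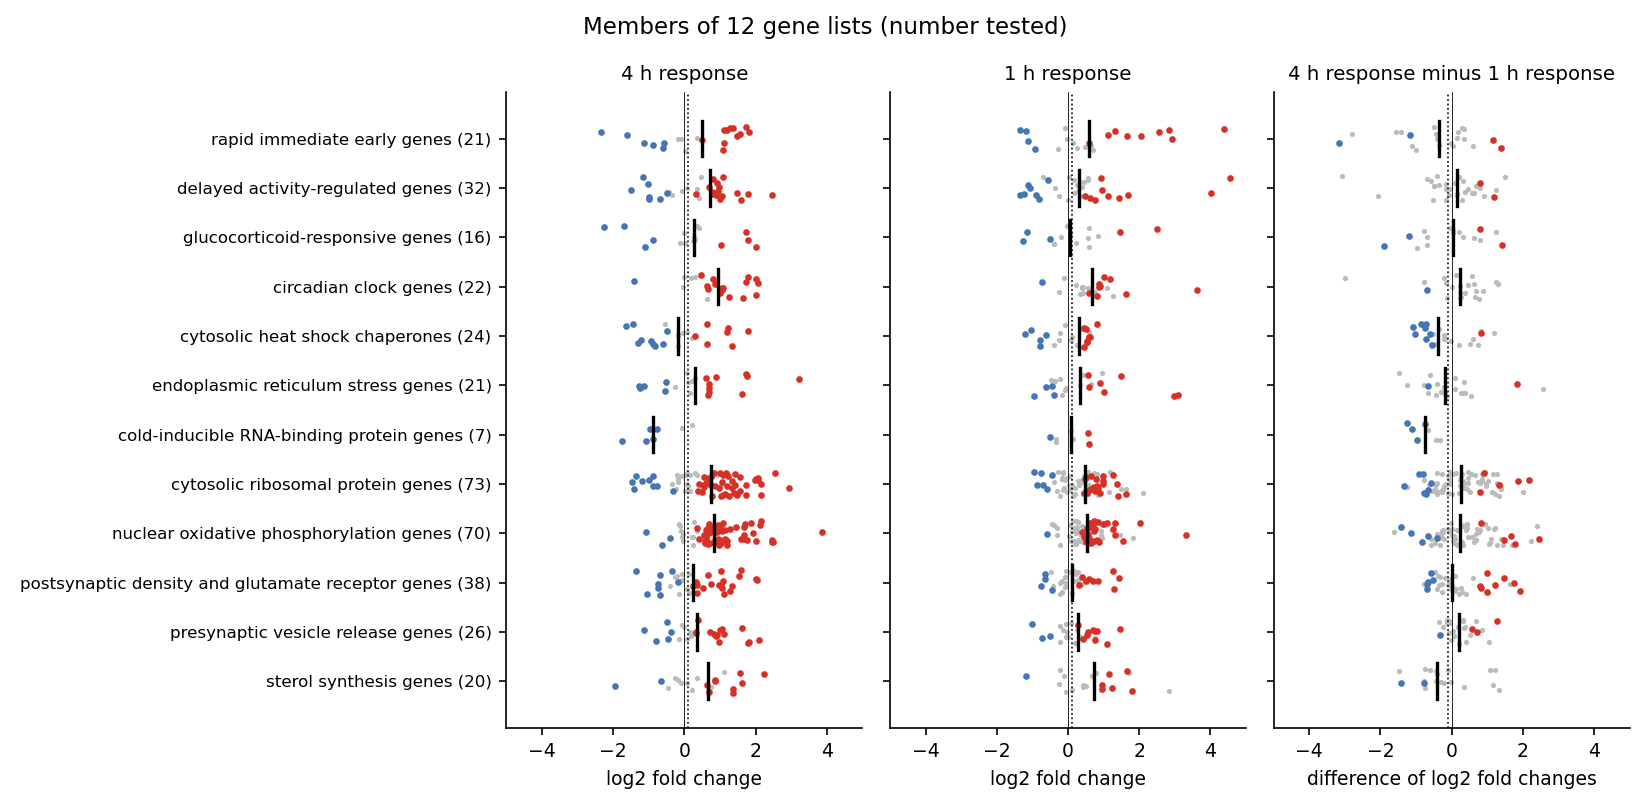
Time contrast (log2, 4 h response minus 1 h response) of the tested members of 12 gene lists, with members called higher in red, lower in blue and not called in grey, the list median as a black bar and the median of all genes as a dotted line. The medians of cold-inducible genes (-0.74), sterol synthesis genes (-0.42) and heat shock chaperones (-0.40) lie below the median of all genes (-0.10).

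Of 17 pyramidal neuron markers tested, 4 were higher in the time contrast and none lower, against 4.2% and 10.1% of all genes. The 4 were Nrgn, Cux1, Tbr1 and Slc17a7, and none of them was called in the pair share fit. Slc17a7 was called in 11 of the 36 fits that leave out 1 library. Of 7 astrocyte markers none was called, of 6 interneuron markers 1 was higher (Cck) and 1 lower (Dlx1), neither called in the pair share fit, and of 4 oligodendrocyte markers 1 was higher, Cnp, with exons opposite another gene (1.88, adjusted p = 0.000928, and 0.0696 in the pair share fit). The markers of precursors and microglia had 1 and 2 tested members with no call.

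The time contrast was called for 352 genes in Shank3 mice (3.1% of those tested, with 0.996% higher and 2.11% lower) and 98 in WT mice (0.864%, with 0.176% higher and 0.688% lower). In the pair share fit it was called for 99 genes in Shank3 mice (0.873%) and 194 in WT mice (1.71%). Without the covariate, 53 genes were called in both genotypes, all in the same direction. This is 15.1% of the Shank3 and 54.1% of the WT calls. The difference between the genotypes in the time contrast was called for no gene with edgeR or DESeq2, with 410 genes at an unadjusted p under 0.05. Of the 1623 genes called in the mean over genotypes, 1622 had the same sign in both genotypes, a count that the averaging partly builds in. Their median contrast was -0.69 in Shank3 and -0.66 in WT mice. For Pde1a it was -0.95 in Shank3 and -1.25 in WT mice, for Homer1 0.76 and 0.86 and for Xbp1 2.15 and 1.53.

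Counts within a genotype depended on single libraries. The WT count was 1, 2, 44 and 39 without naive WT replicates 1, 2, 6 and 7, 65 without 1 h WT replicate 3, and 200, 40, 61 and 51 without 4 h WT replicates 2 to 5 in turn. It was also 59 and 60 without naive Shank3 replicates 3 and 6 and 64 without 1 h Shank3 replicate 2. The Shank3 count was 30, 48, 186, 135 and 177 without naive Shank3 replicates 2 to 6 in turn, and 174, 227, 207 and 120 without 1 h Shank3 replicates 1, 2, 4 and 5. It was 114, 906, 138, 125 and 702 without 4 h Shank3 replicates 1, 2, 3, 5 and 6. A larger count in Shank3 mice does not show that the genotypes differ.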

How the data were processed

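The deposited files hold counts per gene and library. Per the submitters' processing notes, the authors worked on mm10 with HISAT2 2.2.0, Salmon 1.4, StringTie 2.1.3, DESeq2, FastQC and Trimmomatic 0.39, and the sources used here do not say which step made the counts. Genes were kept with edgeR's filterByExpr at a minimum count of 10. Libraries were scaled by TMM within 4 classes of genes, by what lies on the opposite strand, and fitted with edgeR 4.0.16 in R 4.3.3 (quasi-likelihood test, 8 groups of genotype, treatment and cohort, 28 residual degrees of freedom). A normalized count is a count multiplied by the geometric mean of the scaled library sizes over that library's own. The main fit did not pair libraries by replicate number. Of 39 same-numbered pairs 6 correlated above 0.1 (-0.19 to 0.63). The highest were the WT and Shank3 libraries at 4 h of replicate 5 (0.63) and replicate 2 (0.556). Whether same-numbered libraries share a processing step was not tested. No 2 libraries of a group agreed within sampling noise. The fit was tested on simulated counts.

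Named genes, with no gene opposite and a mean log2 CPM of at least 1, are the 6 with the smallest p in each time class and direction, the 10 in each direction of the time contrast and the 5 in the genotype difference. Added to these are, from each list, the 4 genes with the lowest p in the contrast, Shank3, and genes said to be chosen after their values were seen. The text describes a selection of them, and some genes are not reported here. The members and lists were chosen with earlier results of these data known. Alternatives were other scalings, DESeq2 1.42.0, no low-count filter, the pair share as a covariate, a replicate block, and leaving out libraries.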

Additional observations from a re-analysis of the deposited data

Results flagged for a closer look

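Among 102 groups of 4 to 6 libraries tested over 17 measures, 7 values stood apart from the rest of their group by Dixon's criterion, which chance gives in about 1 in 20 groups. Replicate 5 of the WT mice at 4 h held 3.52 M counts, against 1.49 to 2.04 M in the others of its group. The same library was low for Pde1a (149.4 normalized counts, against 213 to 237) and high for Nrgn (996.6, against 692 to 779.9) and Egr3 (103.0, against 54.5 to 57.2). Replicate 1 of the WT mice at 4 h was high for Clcn3 (32.95, against 21.2 to 24.1). Replicate 1 of the WT mice at 1 h was high for Map6 (68.89, against 38.8 to 41.9). Replicate 4 of the naive WT mice was high for Egr3 (47.49, against 26.8 to 29.9).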

How the results depend on the processing

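Of 97 named genes called in the time contrast, 70 were called without each of the 36 libraries and 15 in every other alternative. Not called were 80 without the 8 libraries below, 39 with the pair share, 34 with the replicate block, 13 with TMM over all genes and 10 between swim libraries alone. The cause of the changes below was not tested. Fewer libraries or genes entered some fits by construction. Compared directly, 4 h and 1 h swim libraries differed for 6789 genes. With the pair share the counts were 666 for the time contrast, 930 for the 4 h response, 194 in WT and 99 in Shank3 mice, 100 late and 537 sustained genes. Among genes with none on the opposite strand they were 542, 2706, 1289 at 1 h, 7 in WT, 114 in Shank3, 77 early, 357 late and 912 sustained. With the replicate block they were 589 for the time contrast, 0 in WT, 110 in Shank3, 108 early and 370 late. Without 8 libraries at 4 h with a pair share over 20%, chosen after seeing the data, they were 118, 2838 at 4 h, 0 in WT, 3 in Shank3, 64 early and 33 late. The WT and Shank3 counts were 365 and 613 with DESeq2, 285 and 919 with no low-count filter, and 43 and 55 without 3 libraries high in ribosomal RNA. The WT count was 37 with TMM over all genes, and the genotype difference called 5 genes with no filter. Class members also changed with TMM over all genes, where 87 of the 304 early and 491 of the 873 late genes kept their class.

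Leaving out 1 library at a time gave 1158 to 2041 genes in the time contrast, 6654 to 7195 at 4 h, 3475 to 4522 at 1 h, 1 to 200 in WT, 30 to 906 in Shank3, 0 for the genotype difference, 190 to 333 early, 678 to 1066 late and 2513 to 3090 sustained. It gave pair share differences of 10.97 to 14.08 points in Shank3 and 7.83 to 11.48 in WT mice at 4 h, and 1.98 to 3.04 in Shank3 and 3.01 to 4.12 in WT mice at 1 h.

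Signs turned between swim libraries alone for Stx7 (0.106), Bnip3l (0.636), Snx10 (0.448), Pitpnm1 (-0.011), Rxrb (-0.04) and Fdft1 (0.406). In the 4 h response they turned with the pair share for Gad1 (-0.831), Gad2 (-0.126), Slc1a3 (-0.377), Shank3 (-0.201) and Calr (0.064). TMM over all genes turned Eif2b3 (0.347) and Stard4 (0.22), and no filter Eif2b3 (0.058). The replicate block turned Eif2b3 (0.08), Gad1 (-0.524), Gad2 (-0.048) and Mobp (-0.026). Without the 3 libraries Gad1 (-0.059) and Mobp (-0.017) turned, and without the 8 Gad1 (-0.663) and Gad2 (-0.107). Leaving out 1 library gave -0.255 to 0.036 for Eif2b3, turned without naive WT replicate 7, and -0.031 to 0.672 for Gad1, turned without 4 h WT replicate 4.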
